A study of Solanum lycopersicum with 36 samples.

Results

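The sequences described here were the candidate small RNAs of 24 nt in tomato leaves, which carry the prefix PC in the study's table and were counted there apart from the known miRNAs. They were chosen by that prefix and by a length of 24 nt, with each sequence counted once. This gave 234 of the 430 candidates and of the 765 small RNA sequences listed in all. The leaves came from wild type tomato plants of 4 treatments with 3 libraries each. At the start of the treatments the plants were 24 days old, and irrigation was either kept up or withheld for 3 days. Control plants were irrigated and kept at 26 °C by day, drought plants had no water and stayed at 26 °C, heat plants were irrigated and kept at 38 °C, and combination plants had no water and were kept at 38 °C, with a treatment of 48 h in each case by the labels. The study's text places the sampling for sequencing at an earlier hour of the treatment than the labels do, so the exact time is uncertain. The study calls the replicates biological, and the labels do not say whether they came from separate plants.

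Plants make small RNAs with Dicer-like (DCL) enzymes. DCL1 cuts most miRNAs from hairpins, typically at 21 nt, and they act with the Argonaute protein AGO1, which prefers a uridine at the 5′ end. DCL3 cuts most 24-nt small RNAs, which act with AGO4 and related proteins in guiding DNA methylation to transposons and repeats, and AGO4 prefers an adenosine at the 5′ end. The sources used here give no function for any of the 234 candidates.

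The sequences that carried the results are shown first, written 5′ to 3′ with T for U as in the deposited table, and with bases 2 to 8, the seed, in capitals. The seed is shown to group the sequences, since plant miRNAs pair with their targets over nearly their full length. The first 3 are the candidates that limma called between treatments, of which PC-186-5p is described by its levels only.
PC-303-3p: tTTACCTTggttggtcatgatgca
PC-181-3p: cCACGTAGgacaaaaaggagtaga
PC-186-5p: aATTTCTCtgtgaatgttgttgtt
The next sequences were the most abundant candidate with the other arm of its hairpin, and the pair of arms with the highest levels.
PC-74-5p: aGTGGACAagtaaaggtggatgga
PC-74-3p: cGTCCACTtttatttgttcgctat
PC-102-5p: aGGCGCATgtgtcatatctttaca
PC-102-3p: aTGTAAGGatatgacacatgagcc
In the list of precursors that accompanied the study, placed on the SL3.0 tomato assembly, the hairpin of PC-303-3p lay at chr5:1022852-1023076 on the minus strand, that of PC-181-3p at chr6:42971019-42971266 on the plus strand, and that of PC-186-5p at chr9:66700202-66700396 on the plus strand. The hairpins of PC-74 and PC-102 lay on the minus strand at chr6:1520723-1520853 and chr9:1188021-1188217. No annotation of that assembly was used here, so the genes or repeats at these positions were not examined.

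An adenosine at the 5′ end was the most common feature of the 24-nt candidates. It was found in 197 of 234 sequences (84.2%), against 22 with U (9.40%), 11 with G (4.70%) and 4 with C (1.71%). Among the 175 candidates of 20 to 22 nt, 38.9% began with A and 50.3% with U. Among the 67 named sequences of 23 to 25 nt, 65.7% began with A and 16.4% with U. Adenosine came first in 105 of 122 sequences of the 5p arm (86.1%) and in 92 of 112 of the 3p arm (82.1%). Inside the sequences, A made up 32.6% of bases 2 to 23. Weighted by normalized reads, 87.1% of the candidates' level came from sequences that began with A. The median GC content was 37.5%, within a range of 20.8% to 58.3%, and that of the candidates of 20 to 22 nt was 42.9%.

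**Figure D1:**
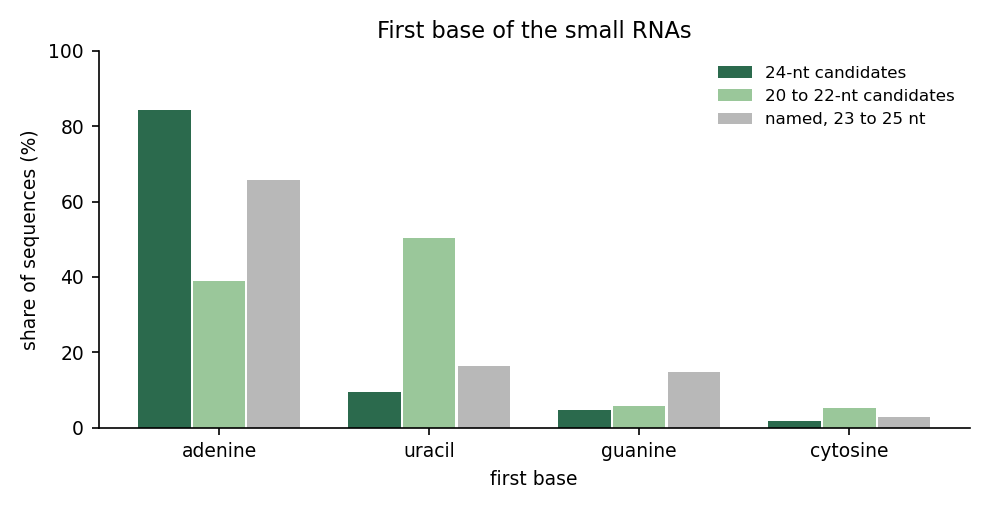
Share of sequences (%) that begin with each base, for the 234 24-nt candidates, the 175 candidates of 20 to 22 nt and the 67 named sequences of 23 to 25 nt, each sequence counted once. Adenine leads in the 24-nt candidates with 84.2%, and uracil leads in the shorter candidates with 50.3%.

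Related sequences recurred among candidates from separate hairpins. When sequences sharing a stretch of 14 bases on either strand were joined, 97 of 234 (41.5%) fell into 20 families. Of these, 7 families were only the complementary arms of 1 hairpin, with 14 candidates. The other 13 families joined candidates from separate hairpins, with 83 candidates (35.5%). The largest family had 24 candidates from 22 hairpins on 8 chromosomes, 12 on 5p and 12 on 3p arms, and 15 of them held the stretch aacgtatatcaa or its complement. Within it lay most of the 7 candidates with the seed GTAACGT, which was the seed shared most often. They are shown because they differ at few bases and come from separate hairpins.
PC-171-3p: aGTAACGTatatcaacctaacgcc
PC-22-3p: aGTAACGTatatcaatctgatgcc
PC-95-3p: aGTAACGTatatcgatctgacgcc
PC-178-3p: aGTAACGTacatcaatctgacgcc
PC-113-3p: aGTAACGTatatcaacctaacgct
PC-235-3p: aGTAACGTatatcaacctaatgcc
PC-208-3p: aGTAACGTatatcaacctaacact
The second family had 16 candidates from 7 chromosomes. All 16 were on the 5p arm and all 16 began with A. Of the 5 candidates with the seed TAAAATT, the 3 that passed the filter on level described below all belonged to it.
PC-166-5p: aTAAAATTgaacaagcaaacacac
PC-242-5p: aTAAAATTgaacaagtagacaccc
PC-232-5p: aTAAAATTgaacaagtagacacaa
The third family had 10 candidates from 5 chromosomes. In all there were 202 seeds, and 51 candidates shared theirs with at least 1 other. Reads of such near-identical sequences could be divided between them in ways the sources used here do not state, so the level of a single family member is uncertain. The families took a small share of the level, with 5.29%, 3.204% and 1.61% of the candidates' normalized reads in the largest 3.

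The 234 candidates came from 204 precursors, and for 30 of these both arms were 24-nt candidates. Dicer products are expected to pair with 3′ overhangs of 2 nt. Of the 30 pairs, 8 paired best at that offset, 7 at other 3′ overhangs, 4 with blunt ends and 11 with 5′ overhangs, counting G-U pairs and offsets of up to 6 nt. The arms were aligned without gaps and the hairpins were not folded. An unpaired extra base in 1 arm can thus shift the best offset, so these counts do not show the true ends of the duplexes. At the best offset 25 of the 30 pairs had at least 18 paired positions. The arms of PC-74 paired at all 22 positions with 2-nt overhangs, and the 5p arm was 455 times as abundant as the 3p arm. The arms of PC-102 had 6 of 22 paired positions at that offset and 22 of 23 with 1-nt 5′ overhangs, and the 3p arm was 2.30 times as abundant.

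The candidates were listed at low levels and in part of the libraries. The values are normalized reads, which the study obtained by scaling the reads of each library. A sequence listed at 0 was not shown to be absent, because the lowest value above 0 in a library was between 1.58 and 3.24 normalized reads. Summed over all 765 sequences, a library held 961770 to 1208899 normalized reads, of which the 24-nt candidates took 0.103% to 0.502%. Of the 234 candidates, 28 were above 0 in all 12 libraries (12%), against 42 of 175 candidates of 20 to 22 nt (24.0%), and 58 were above 0 in 1 to 3 libraries only. The median candidate was above 0 in 6 libraries, with a mean of 4.52 normalized reads over the 12. That of the candidates of 20 to 22 nt was 4.97. Only 5 candidates had a mean of at least 100 normalized reads, and 177 had a mean under 10.

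The number of candidates listed varied as much within a treatment as between treatments. It was 84, 118 and 158 in the control libraries, 108, 151 and 129 under drought, 193, 135 and 109 under heat, and 41, 185 and 144 under the combination (replicates 1 to 3). The ranges of the 4 treatments overlapped. The summed level was 2156, 3291 and 4469 normalized reads in control, 2779, 5475 and 3568 under drought, 4959, 4165 and 3002 under heat, and 1232, 5389 and 3866 under the combination. The means were 3306 ± 1157 (SD, n = 3), 3941 ± 1386, 4042 ± 984 and 3496 ± 2103 normalized reads, so the treatments differed by less than the spread between their libraries. In leaf tissue, fewer cells making a small RNA and less of it per cell cannot be told apart.

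Combination replicate 1 listed the fewest sequences of the 12 libraries. It listed 372 of the 765 sequences, against 433 to 634 in the other 11, and 41 of the 234 candidates, against 84 to 193. It also listed 21 of the 67 named sequences of 23 to 25 nt, against 32 to 54 elsewhere, but 100 of the 175 candidates of 20 to 22 nt, within the 79 to 153 of the other libraries. Why it differed was not tested.

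**Figure D2:**
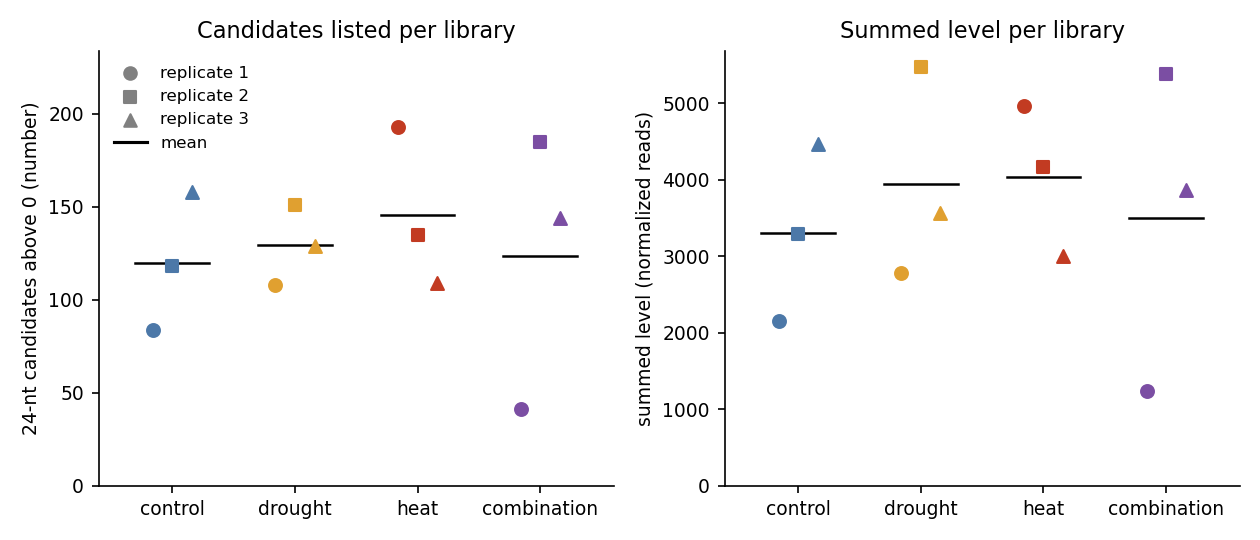
Number of the 234 24-nt candidates above 0 (left) and their summed level in normalized reads (right) in each library, by treatment, with 1 point a library and a line at the mean of 3. Combination replicate 1 is lowest in both, with 41 candidates and 1232 normalized reads.

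Counted over the 3 libraries of a treatment, 189 candidates were above 0 in at least 1 control library, 182 under drought, 211 under heat and 196 under the combination, and 146 at all 4 treatments. When a candidate had to be above 0 in all 3 libraries, the numbers were 60, 75, 85 and 41, where the 41 are all the candidates that combination replicate 1 listed, so that library sets the number. By presence in at least 1 library, few candidates were listed at 1 treatment only, namely 2 of control, 1 of drought, 9 of heat and 6 of the combination, and 15 of these 18 rested on a single library. These counts moved with the rule for presence: they were 4, 10, 21 and 5 in the same order when a candidate had to be above 0 in all 3 libraries, and 3, 12, 33 and 10 with at least 10 normalized reads summed over the treatment. Without heat replicate 1, 3 in place of 9 were listed at heat only. At heat the highest values were 13.8 normalized reads of PC-331-5p in replicate 1, 12.95 of PC-271-3p in replicate 2 and 12.04 of PC-328-5p in replicate 1. At the combination, PC-94-5p was listed at 4.43 and 6.95 in replicates 2 and 3, PC-119-3p at 5.22 in replicate 3, and PC-91-5p at 5.06 in replicate 2. At control PC-83-3p reached 6.96 and PC-137-5p 6.09, both in replicate 3, and at drought PC-142-3p reached 9.06 in replicate 2. The highest of these values was the 13.8 in heat replicate 1, where the lowest value above 0 was 1.93.

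A few abundant sequences held most of the level. PC-74-5p alone made up 22.8% of the candidates' normalized reads and the first 10 together 57.5%. PC-74-5p was listed at 624, 1032 and 1234 normalized reads in control, at 752, 1235 and 925 under drought, at 715, 740 and 538 under heat, and at 372, 1131 and 801 under the combination. Its ranges overlapped between all treatments. The other arm, PC-74-3p, reached 11.9 in control replicate 1 and was at 0 in 9 libraries. PC-102-3p followed, with 217, 402 and 402 in control, 313, 513 and 299 under drought, 432, 402 and 379 under heat, and 257, 922 and 577 under the combination. PC-102-5p, from the same hairpin, ranged from 79.05 to 369 with a median of 177, and PC-83-5p from 63.2 to 285 with a median of 150. The remaining members of the first 10 were PC-303-3p (described below), PC-144-3p, PC-6-3p, PC-69-3p, PC-111-3p and PC-69-5p, with medians between 51.8 and 114. For 8 of the 10 the lowest of the 12 libraries was combination replicate 1.

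**Figure D3:**
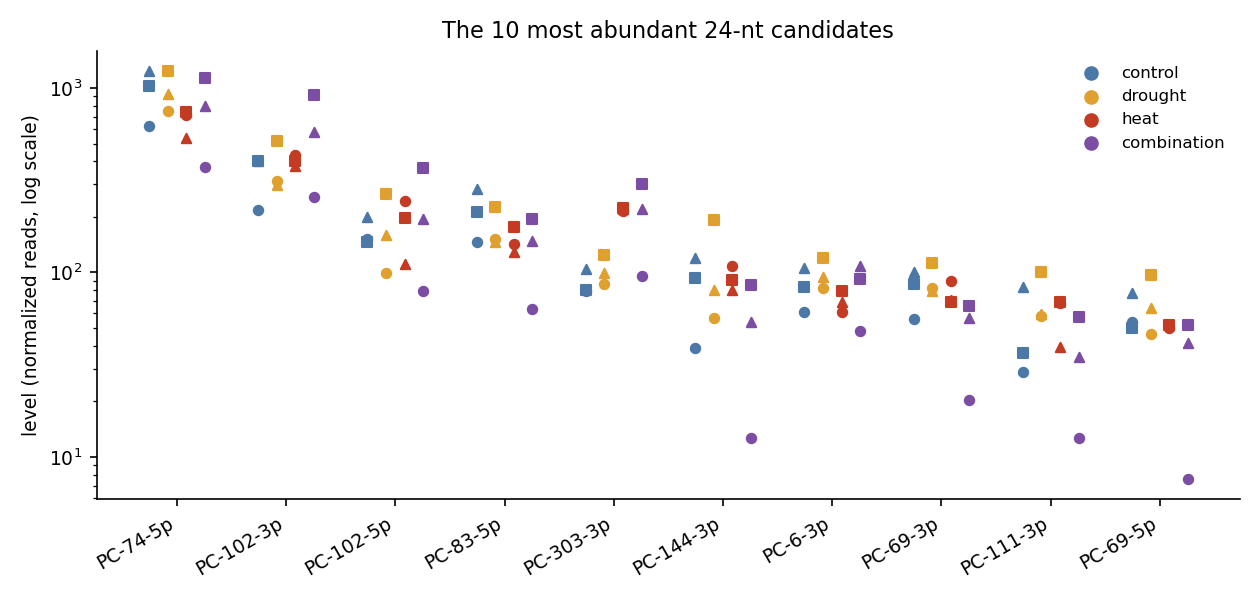
Level of the 10 most abundant 24-nt candidates in normalized reads on a log axis, with 1 point a library (circle, square and triangle for replicates 1, 2 and 3) and colours for treatments. PC-74-5p is highest, and combination replicate 1 is the lowest library for 8 of the 10.

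In 5 hairpins both arms passed the filter on level. PC-102-3p was above PC-102-5p in all 12 libraries, by 1.42 to 3.42 times, PC-69-3p above PC-69-5p in 12 by 1.04 to 2.67 times, and PC-144-3p above PC-144-5p in 12, by 5.50 to 10.8 times in the 11 libraries where the lower arm was above 0. PC-53-3p was above PC-53-5p in 11 libraries, the exception being heat replicate 1 with a ratio of 0.788. PC-134-3p was above PC-134-5p in 11 libraries, and in control replicate 1 both arms were at 11.9. The same arm was thus the higher one in at least 11 of the 12 libraries in each of the 5 hairpins, across the 4 treatments.

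To ask which candidates differed between treatments, every sequence that reached 10 normalized reads in 3 or more libraries was fitted with limma on log2(normalized reads + 1), and p-values were adjusted by the Benjamini-Hochberg method over all of them, called under 0.05. Of the 234 candidates 98 passed this filter (41.9%), against 60.5% of the other sequences and 44.0% of the candidates of 20 to 22 nt. The 98 were not all candidates, and a candidate high at a single treatment could pass through that treatment alone. The median standard error was 1.12 on the log2 scale for a comparison of 2 treatments, against 0.43 for the other 321 sequences tested. The comparisons share libraries and are not independent of each other.

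Between 38 °C and 26 °C, as the mean of heat and combination against the mean of control and drought, limma called PC-303-3p higher and PC-181-3p lower. PC-186-5p was called too, but it is not counted here because it passed the filter only through libraries at 38 °C. PC-181-3p passed it mainly through libraries at 26 °C, where it was higher, so its calls carry the limit given below. The background, counted without such an exclusion, was 19.3% of all 419 sequences tested in either direction, 6.44% higher and 12.9% lower. The candidates' share lay below it, at 3 in 98 by limma and 2 in 98 without PC-186-5p. Their median standard error was 0.79, against 0.30 for the other sequences tested, so the lower share is not read as a weaker response. Without combination replicate 1, limma called 5 candidates in place of 3, PC-186-5p included in both.

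PC-303-3p is one of the 22 candidates that begin with U. It was listed at 79.6, 80.2 and 104 normalized reads in control and at 86.3, 124 and 99.5 under drought. It was listed at 217, 224 and 222 under heat, and at 96.1, 304 and 221 under the combination. The heat libraries all lay above the 6 libraries at 26 °C, and among the libraries at 38 °C only combination replicate 1 lay within their range. The difference between 38 °C and 26 °C was 1.09 ± 0.25 (SE) on the log2 scale (limma, adjusted p = 0.00771), and it was called under all 21 alternatives. Heat vs control gave 1.33 ± 0.36 (adjusted p = 0.0225), where leaving out any heat library, control replicate 1 or control replicate 2 ended the call with adjusted p between 0.0541 and 0.0757. Combination vs control gave 1.08 (limma, adjusted p = 0.0734), and 1.56 (adjusted p = 0.00221) without combination replicate 1.

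PC-181-3p is one of the 4 candidates that begin with C. It was listed at 8.95, 33.7 and 51.8 normalized reads in control and at 25.6, 38.8 and 23.2 under drought. It was listed at 12.04, 9.42 and 9.92 under heat, and at 0, 6.64 and 0 under the combination. All combination libraries lay below all libraries at 26 °C, while the heat libraries overlapped control replicate 1. The difference between 38 °C and 26 °C was -2.56 ± 0.59 on the log2 scale (limma, adjusted p = 0.00716), called under all 21 alternatives with values between -3.04 and -1.68. Combination vs control gave -3.74 ± 0.83 (adjusted p = 0.0104) and combination vs drought -3.90 ± 0.83 (adjusted p = 0.00820). The call of combination vs control was lost without control replicate 3 (adjusted p = 0.0542), and those of both comparisons with voom, at -4.11 and -4.33 (adjusted p = 0.102 and 0.0918). A fit of control and combination alone gave limma's adjusted p = 0.0883. Without combination replicate 1 the calls held, at -2.31 for 38 °C vs 26 °C, -3.25 for combination vs control and -3.42 for combination vs drought (adjusted p = 0.0123, 0.0281 and 0.0257). Of the 6 libraries in which PC-181-3p reached 10 normalized reads, 5 were at 26 °C. It would thus have passed the filter through the libraries at 26 °C alone, and also through the 3 drought libraries alone, and no combination library reached 10. Passing in this way favoured a lower level at 38 °C and under the combination, so its calls are not read as full tests. The same limit holds for the alternatives that kept a filter on level.

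PC-186-5p was listed at 0 in all 6 libraries at 26 °C. Under heat it was listed at 0, 23.6 and 0 normalized reads, and under the combination at 16.4, 22.8 and 113. It was above 0 in 4 of the 6 libraries at 38 °C, and it passed the filter on level through those libraries alone. Since the libraries at 26 °C were all at 0, no fold is given. Passing the filter in this way meant that it had to differ between the temperatures, so its calls by limma are not read as tests, and its levels are given as a description. Of its summed level, most came from combination replicate 3.

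**Figure D4:**
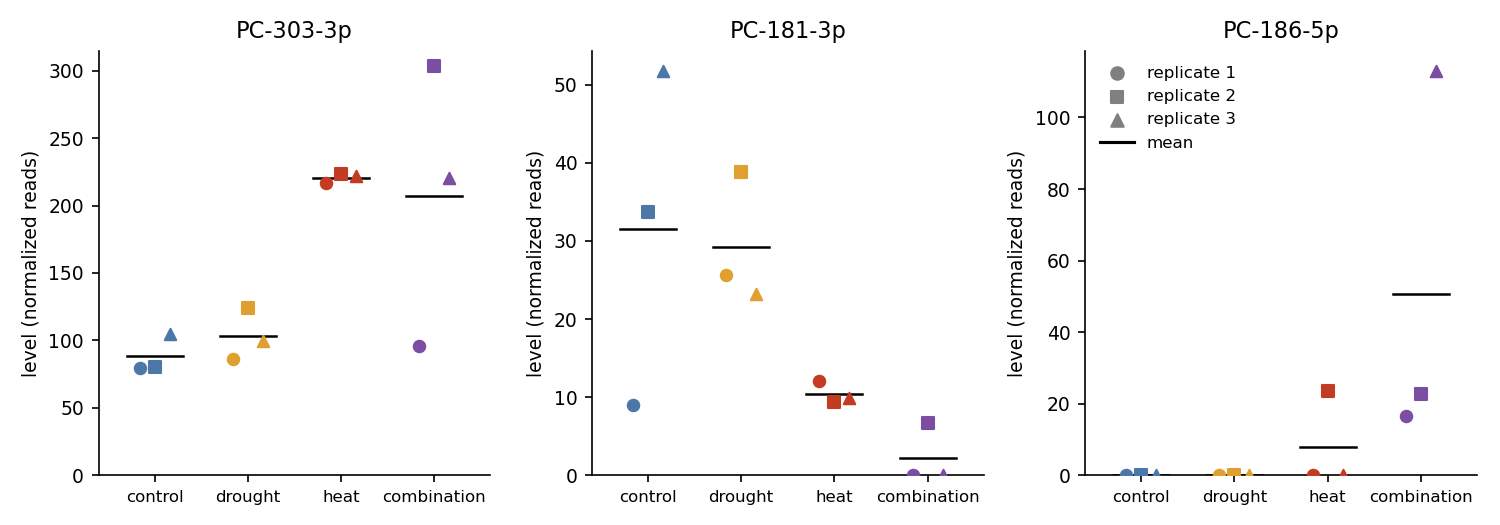
Level in normalized reads of PC-303-3p, PC-181-3p and PC-186-5p in each of the 12 libraries, by treatment, with a line at the mean of 3 libraries. PC-303-3p is at 217 to 224 under heat and at 79.6 to 124 in the 6 libraries at 26 °C, PC-181-3p is at 0 to 6.64 under the combination, and PC-186-5p is at 0 in every library at 26 °C.

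By treatment, PC-303-3p was the only candidate called for heat vs control, and it was higher. There the background was 15% of all sequences tested, with 2.39% higher and 12.6% lower. For combination vs control PC-181-3p was lower, beside the call of PC-186-5p that is not counted, against a background of 12.6%, with 3.34% higher and 9.31% lower. Scaling the libraries by a trimmed mean of log ratios gave 3 higher and 1 lower, PC-186-5p included. For combination vs drought PC-181-3p was again lower, with the same exception, against a background of 11.9%, with 4.53% higher and 7.4% lower. Both calls of PC-181-3p carry the limit from the filter given above. Without combination replicate 1, limma called 4 candidates for heat vs control in place of 1, 7 for combination vs control in place of 2 and 4 for combination vs drought in place of 2, PC-186-5p included in both combination counts. The additional ones included PC-149-3p and PC-199-5p, which were at 11.9 to 32.4 normalized reads at 26 °C and at 59.2 to 91.1 in combination replicates 2 and 3. Without combination replicate 2, 5 candidates were called for combination vs drought. Control libraries mattered as well: without control replicate 2, PC-165-3p was called higher for heat vs control (limma, adjusted p = 0.00941), and without control replicate 3, PC-152-3p was (adjusted p = 0.00366). Leaving out control replicate 2 removed the only control value of PC-165-3p above 0. PC-165-3p reached 10 normalized reads in 1 library at 26 °C and 3 at 38 °C. For PC-274-5p and PC-299-5p, called for heat vs control without combination replicate 1, these numbers were 1 and 3, and 1 and 4. Passing in this way favoured a higher level at 38 °C, so the calls of these candidates are not read as tests.

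No candidate was called in the remaining comparisons. For drought vs control the background was 0% as well. With limma 5 of the 98 had an unadjusted p under 0.05, against 34 of all 419 sequences tested, and voom called 0 of the 98. The lowest adjusted p were those of PC-165-3p (2.26 ± 0.80 on the log2 scale, adjusted p = 0.422) and PC-152-3p (2.49 ± 0.96, adjusted p = 0.478). PC-165-3p was listed at 0, 4.56 and 0 normalized reads in control and at 5.69, 12.9 and 5.53 under drought. For heat vs drought the background was 12.9%, and voom called 0 of the 98 candidates. In limma 2 of the 98 candidates had an unadjusted p under 0.05, against 82 of all 419 sequences. The lowest adjusted p were those of PC-303-3p (adjusted p = 0.0684) and PC-46-3p (-2.17 ± 0.96, adjusted p = 0.237). Without combination replicate 1, which enters through the shared spread, PC-303-3p was called there as well (adjusted p = 0.00718), and without combination replicate 2 too (adjusted p = 0.0374).

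Combination vs heat had a background of 6.44%. With limma 7 of the 98 candidates had an unadjusted p under 0.05, against 73 of all 419 sequences tested, and voom called 0 of the 98. The lowest adjusted p were those of PC-181-3p (-2.53 ± 0.83, adjusted p = 0.0896, and -2.04 with adjusted p = 0.259 without combination replicate 1) and PC-186-5p (adjusted p = 0.128, and 0.187 without that library). For withheld water vs irrigation, over both temperatures, the background was 1.19%, and voom called 0 of the 98 candidates. In limma 1 of the 98 candidates had an unadjusted p under 0.05, against 30 of all 419 sequences. The lowest adjusted p were those of PC-97-5p (-1.34 ± 0.62) and PC-165-3p (1.18 ± 0.57), both 0.660. The interaction of heat and drought asks whether withheld water had a different effect at 38 °C and at 26 °C. There the background was 5.01%, and voom called 0 of the 98 candidates. In limma 8 of the 98 candidates had an unadjusted p under 0.05, against 86 of all 419 sequences. The lowest adjusted p were those of PC-61-5p (-1.97 ± 0.75, adjusted p = 0.164) and PC-274-5p (-3.87 ± 1.48, adjusted p = 0.167).

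Considered over all 98 candidates that passed the filter, the differences leaned to one side in several comparisons, which is given as a description without a test. For heat vs control the estimate was above 0 for 81 and below 0 for 17, with a median of 0.92 on the log2 scale, against a median of -0.02 for the other 321 sequences tested. The candidates' median was 0.73 without the filter, and also when 10 normalized reads were required in 6 libraries. Leaving out 1 library moved the median from 0.40 (without control replicate 1) to 1.22 (without heat replicate 3). For drought vs control it was above 0 for 75 and below 0 for 22, with a median of 0.49 against -0.04, but the median was 0.08 without control replicate 1 and 0.06 without drought replicate 2. For combination vs control 47 were above 0 and 51 below, with a median of -0.03, but without combination replicate 1 there were 81 above 0 and 17 below with a median of 0.91, against 0.01 for the other sequences. Without combination replicate 2 the median was -0.54. For combination vs heat 19 were above 0 and 79 below, with a median of -0.98, and for combination vs drought 32 and 66, with a median of -0.59. Without combination replicate 1 these became 46 and 52 with a median of -0.07, and 61 and 37 with a median of 0.12. For the interaction 81 were below 0, with a median of -1.57, and without combination replicate 1 66 were below 0, with a median of -0.62, against 0.20 for the other sequences. The medians over the candidates thus depended on single libraries, in comparisons with and without the combination. For 19 tested candidates whose other arm was a 24-nt candidate too, the median of heat vs control was 0.30, against 1.03 for the other 79, whose median standard error was also larger (1.23 against 0.66). In the largest sequence family, 12 of 13 tested candidates were above 0 for heat vs control (median 0.98), and in the second family 8 of 8 (median 1.27), with 0 called in either. The sequences within a family may share reads and are not independent. In the largest family PC-22-3p, PC-165-3p, PC-252-3p and PC-270-5p would have passed the filter through the libraries at 38 °C alone, but not at 26 °C alone. The same held for PC-171-3p, PC-321-5p and PC-354-5p. PC-23-3p, PC-154-3p, PC-250-5p, PC-283-5p and PC-329-3p would have passed at either temperature, and PC-251-5p needed both. Over the 98 candidates, more would have passed at 38 °C only than at 26 °C only. Members that passed in this way favour values above 0 for heat vs control, so these counts above 0 are not read as a response.

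**Figure D5:**
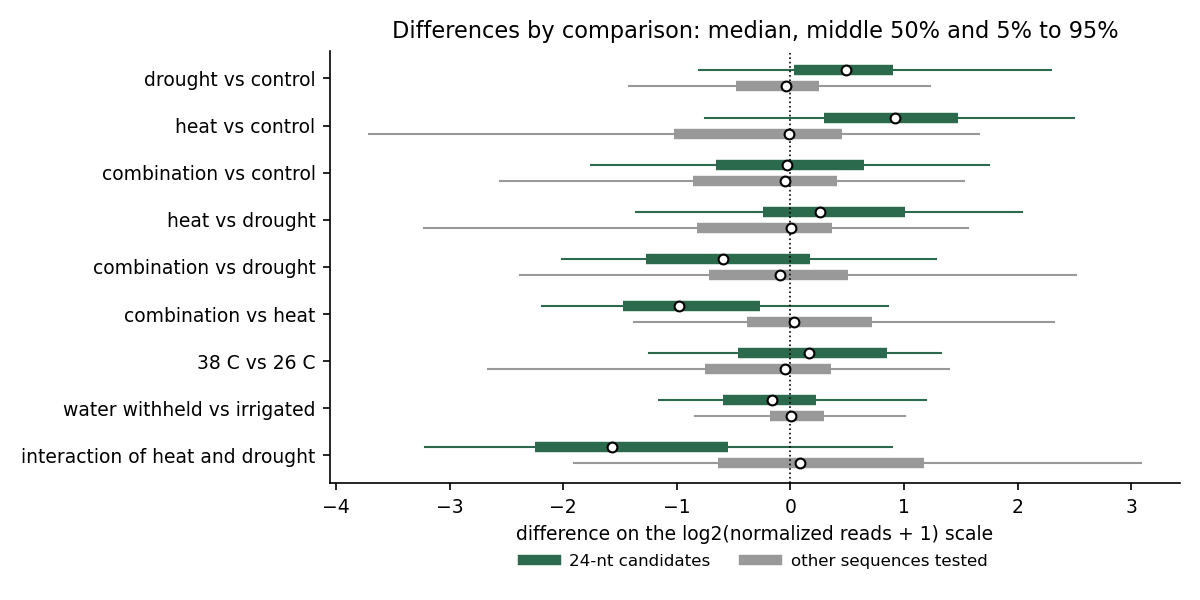
Differences on the log2(normalized reads + 1) scale for 98 24-nt candidates and 321 other sequences that passed the filter, in each of the 9 comparisons, with circles at the median, thick lines over the middle 50% of the sequences and thin lines from the 5th to the 95th percentile. The candidates' median is 0.92 for heat vs control and -0.03 for combination vs control.

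Degradome sequencing reads the cut ends of transcripts, and a listed site pairs a small RNA with a transcript cut inside the paired region. Of the 234 candidates 14 had a listed site (5.98%), against 48.6% of the other sequences and 39.4% of the candidates of 20 to 22 nt. These were 18 of 2174 entries, each for 1 treatment, and 17 of the 18 were above 0 in 1 library only. The exception was PC-52-5p under the combination.
PC-52-5p: aGTCCACCcatatcattaaccatc
Its site lay in Solyc06g018110.3.1, which the table gives the symbol CP31A, in Arabidopsis an RNA-binding protein of the chloroplast. The normalized degradome signal there was 81.3, 36.0 and 109 in the 3 combination libraries, and 44.8, 0 and 0 under heat. Among the sites listed for the candidates, the lowest values above 0 in the combination libraries were 40.7, 36.0 and 54.7, in the same order. The signal of this site was thus not far above the lowest values listed. No entry for the pair was listed at control or drought, which does not show that the site was uncut there. The paper gives a smaller share of degradome reads mapped to transcripts at heat and the combination than at control and drought. A difference between treatments at this site was not tested. The level of PC-52-5p itself was 0, 25.9 and 11.3 normalized reads in the combination libraries, 55.9, 31.8 and 16.1 under heat, 24.9, 7.29 and 20.0 in control and 15.2, 19.4 and 44.2 under drought, so the ranges overlapped, and in combination replicate 1 the site had signal while the candidate was listed at 0.

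The other 13 candidates with a site had 1 to 2 entries each. PC-223-3p was paired with SQD1, a UDP-sulfoquinovose synthase that makes the head group of a chloroplast sulfolipid, with 128 in drought replicate 1 and 36.0 in combination replicate 2. PC-317-3p was paired with HAL3A, annotated as a phosphopantothenoylcysteine decarboxylase of coenzyme A synthesis, with 40.04 in control replicate 3 and 54.7 in combination replicate 3. PC-268-5p was paired with a transcript given as FTSHI3, with 299 in drought replicate 1 and 40.7 in combination replicate 1. PC-166-5p and PC-242-5p, both of the second family, were paired with 1 transcript, PCMP-E16 of the pentatricopeptide repeat proteins, with the same 20.0 in control replicate 3. PC-149-3p (134 in heat replicate 1), PC-174-3p, PC-258-3p, PC-266-3p, PC-276-3p, PC-325-5p, PC-347-5p and PC-359-5p had a site in 1 library each, with values between 6.89 and 266. None of PC-303-3p, PC-181-3p and PC-186-5p had a listed site.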

How the data were processed

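Small RNA was sequenced from 12 leaf samples, 3 libraries for each of 4 treatments, on Illumina instruments per the labels. The authors deposited 1 table of normalized reads, a signal scaled per library, and degradome tables with a normalized signal per library and site. The values were not whole numbers, so no count model was used. Dividing each library by the step of its low values (0.633 to 1.29) gave whole numbers for 85.1% to 87.9% of the values above 0, within 0.001, and these were used for 1 alternative only. Lines that repeated a sequence held the same values and were merged. Names and hairpin positions on SL3.0 were taken from the list of precursors that accompanied the study. The circular RNA table was not used.

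The 419 sequences that reached 10 normalized reads in 3 or more of the 12 libraries were fitted with limma 3.58.1 in R 4.3.3 on log2(normalized reads + 1), with a mean for each treatment, limma's trend of variance with level, and 9 contrasts, each tested on both sides. P-values were adjusted by Benjamini-Hochberg over all 419 and called under 0.05. The procedure was tested on simulated data. The study calls the replicates biological. Since the labels do not say whether they came from separate plants, p-values measure the spread between these libraries. Candidates were named if called in any contrast, if among the 10 highest means, if highest among those at 1 treatment (up to 3), if among the 2 lowest adjusted p of a contrast without calls, if both arms were tested, or if a degradome site was listed. PC-199-5p and PC-299-5p, and PC-149-3p, PC-152-3p, PC-165-3p and PC-274-5p in the account of libraries left out, PC-74-3p and the family members were chosen after their values were seen. The candidates, lists and tests were chosen with earlier results of these data known. Alternatives changed the pseudocount, filter, scaling, trend, samples in the fit, replicate block, voom and each library left out.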

Additional observations from a re-analysis of the deposited data

Results flagged for a closer look

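The items were the most abundant and the called candidates, the number of candidates above 0 and their summed level. Each value was compared with the others of the 6 libraries that shared a day temperature or a water supply. A value was listed where its gap to the nearest library, as a share of the range, was above Dixon's 95% limit for 6 libraries. Of 55 sets of 6 libraries 6 held such a value, all of them for single candidates. For 6 like and normally spread values, chance alone gives such a value in about 5% of sets. The sets here share libraries and join 2 treatments, and those of PC-186-5p held many values of 0, so that rate is only a guide. PC-186-5p was at 113 normalized reads in combination replicate 3, far above the other libraries at 38 °C and the other libraries without water, and at 23.6 in heat replicate 2 where the other irrigated libraries were at 0. PC-69-5p was at 7.59 in combination replicate 1, below the other libraries at 38 °C, and at 77.4 in control replicate 3, above the other irrigated libraries. PC-102-3p was at 217 in control replicate 1, below the other irrigated libraries.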

How the results depend on the processing

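Of 195 alternative counts of called candidates 161 lay within 1.5 times the reported count, which meant 0 again where none was called. The count moved further in 9 alternatives for heat vs control, 8 for combination vs control, 7 for combination vs drought and 1 for 38 °C vs 26 °C. It did so in 5 for heat vs drought and in 2 each for combination vs heat and the interaction. None of the 381 alternative estimates for named candidates changed sign, but these were named for a call or a low adjusted p, so a change was unlikely. The counts below are limma's or voom's own and include PC-186-5p, and the other candidates limited by the filter, where they were called. The cause of the changes was not tested. For heat vs control (1 called), a pseudocount of 0.5 gave 2 and no mean-variance trend 3. For combination vs control (2), the filter over 6 libraries gave 1, scaling by a trimmed mean of log ratios 4, voom 0 and a fit of the 2 groups alone 1. For heat vs drought (0), no filter, that scaling and that fit gave 1 each. For combination vs drought (2), the filter over 6 libraries gave 1 and voom 0. Leaving out 1 library gave 0 to 4 for heat vs control, 1 to 7 for combination vs control, 0 to 1 for heat vs drought, 1 to 5 for combination vs drought, 0 to 2 for combination vs heat, 2 to 5 for 38 °C vs 26 °C and 0 to 1 for the interaction, and 0 throughout for drought vs control and withheld water. Over all 419 sequences, withheld water had 8 calls in place of 5 under either scaling and 3 without the trend, drought vs control had 1 in place of 0 without the trend or with the 2 groups alone and 2 with no filter, and a fit of the 2 groups alone called 33 in place of 53 for combination vs control and 5 in place of 27 for combination vs heat.

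With the replicate number as a block, the counts were 0 for drought vs control, 1 for heat vs control, 2 for combination vs control and combination vs drought, 3 for 38 °C vs 26 °C and 0 in the others, as without it. Deviations of same-numbered libraries correlated between -0.38 and 0.38 over 18 pairs, with 5 over 0.1, and 4 of 12 libraries correlated best with their own number, so the numbers were not taken as a pairing.

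Candidates present at control, drought, heat, combination and all 4 treatments numbered 60, 75, 85, 41 and 28 when above 0 in all 3 libraries. With at least 10 normalized reads summed, they numbered 111 at control, 123 at the combination and 85 at all 4. The summed level moved by less than 1 SD under the alternatives run on it. Leaving out 1 of the 3 libraries of a treatment cannot move its mean by 1 SD, however. The alternatives that left out a library thus could not fail, and they are not read as a sign of a stable level. Low levels limit what these libraries can show: 136 of the 234 candidates were not tested.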
